A study of Mus musculus with 20 samples.

Results

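Adiponectin, resistin and retinol-binding protein 4 are proteins that fat cells release into the blood, and AdipoR2 is a receptor for adiponectin on the receiving cell. Their genes Adipoq, Retn, Rbp4 and Adipor2 were followed through the conversion of 3T3-L1 fibroblasts into adipocytes. The genes were read from every probe set, on either array type used, that the platform annotation ties to one of these symbols and to no other. These were 4 of 13179 probe sets, 1 per gene, for 4 of the 6137 genes that have such a probe set, all on the type called array A here: u37222_s_at for Adipoq, AA286376_s_at for Retn, U63146_s_at for Rbp4 and AA208776_s_at for Adipor2. All 4 passed the filter on dim probe sets. The ending of these IDs is one the maker uses for probe sets that may also match closely related transcripts, and 54.6% of the probe sets of array A carry it.

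3T3-L1 is an established line of mouse fibroblasts, all derived from 1 clone, that can be turned into fat-storing cells in culture. Total RNA was taken at 10 time points and put on Affymetrix expression arrays, 1 sample per time point and array type. By stage these were cells before induction (preconfluent and confluent, n = 2), early cells (6, 12 and 24 hours after induction, n = 3), middle cells (days 2 and 3, n = 2) and late cells (days 4, 7 and 28, n = 3). Every culture from 6 hours on had received the MDI mixture, in common use isobutylmethylxanthine, dexamethasone and insulin, and no uninduced culture of matching age was analysed here, so hormones and time in culture cannot be told apart. Neighbouring time points stand in for replicates, so each error and p-value of a stage contrast rests on the spread within stages, where true changes over time, culture and array are mixed. The p-values for change along the series rest instead on the scatter around a smooth curve through the time points.

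Adipocyte markers followed the labels, and fibroblast markers did so in part. All 9 tested adipocyte markers, among them Fabp4, Lpl and Cebpa, rose in late cells against cells before induction, beside 5.82% of all tested probe sets. Of 8 tested fibroblast or preadipocyte markers 3 fell (Dlk1, Thy1 and S100a4), beside 5.10% of all tested probe sets. The rest were not called, among them Vim (log2 change -0.29), Col1a2 (-0.41) and Cd34 (0.26). The macrophage markers Adgre1, Csf1r and C1qa lay below the floor in all 10 samples, as did Fcgr1. Others of that list lay above it in all 10: Cd14 at 1000 to 2470, Ptprc at 1000 to 1720, C1qb by its counted probe set at 445 to 897 and Lyz2 at 140 to 1650, with 1620 on day 28 against 234 on day 7 and 1240 on day 4. Of the 11 macrophage genes 6 were tested, with none higher and Cd14 and C1qc lower late, beside the same shares of all tested probe sets. The 4 tested on array A summed to 3669, 2277 and 3863 in late cells against 3476 and 3215 before induction, and the part of these genes in the results was not tested. Between 3126 and 3379 probe sets of array A lay above the filter limit of 182 in each sample. The 3-prime to 5-prime signal ratio of the Gapdh control on array A, a sign of RNA quality, was 0.986 and 1.33 before induction, 1.61, 1.43 and 1.45 in early cells, 1.27 and 1.60 in middle cells, and 1.14, 1.13 and 0.992 in late cells. The same ratio of the actin control on array A was 1.054 and 1.478 before induction and 1.386, 1.41 and 1.445 in early cells. It was 1.407 and 1.715 in middle cells, and 1.328, 1.289 and 1.414 in late cells. The part of RNA quality in the results was not tested. In RNA from whole cultures, fewer cells of a kind and less RNA per cell cannot be told apart.

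Adiponectin circulates as multimers of a collagen-like protein and raises fatty acid oxidation and insulin sensitivity through AdipoR1 and AdipoR2, membrane proteins linked to ceramidase activity and AMP-activated kinase. Resistin is a cysteine-rich protein that in mice is made mainly by white adipocytes and opposes insulin action in liver. RBP4 carries retinol in blood, comes chiefly from liver and also from adipose tissue, and is handed its retinol inside the cell. Adipoq and Retn are known targets of C/EBP alpha, and Adipoq also of PPAR gamma.

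The RefSeq promoter windows of the 4 genes (GRCm38.p6, 250 bases before to 50 after an annotated start) are shown to let the starts of genes with such different time courses be compared in base composition. Capitals mark CG pairs, the sites of DNA methylation. The Rbp4 window is the inner of its 2 annotated starts.
Adipoq, chr16:23146286-23146585, plus strand: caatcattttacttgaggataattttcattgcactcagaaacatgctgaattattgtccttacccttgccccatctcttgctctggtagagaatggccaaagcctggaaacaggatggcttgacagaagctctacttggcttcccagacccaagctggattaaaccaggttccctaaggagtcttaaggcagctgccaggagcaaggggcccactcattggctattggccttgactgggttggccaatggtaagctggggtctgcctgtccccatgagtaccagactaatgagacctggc
Retn, chr8:3655520-3655819, plus strand: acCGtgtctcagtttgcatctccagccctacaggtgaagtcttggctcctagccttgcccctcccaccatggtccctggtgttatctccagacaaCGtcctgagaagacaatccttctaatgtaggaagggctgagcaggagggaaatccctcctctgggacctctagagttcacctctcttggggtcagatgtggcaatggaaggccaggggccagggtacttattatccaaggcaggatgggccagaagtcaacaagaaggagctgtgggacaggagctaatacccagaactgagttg
Rbp4, chr19:38124762-38125061, minus strand: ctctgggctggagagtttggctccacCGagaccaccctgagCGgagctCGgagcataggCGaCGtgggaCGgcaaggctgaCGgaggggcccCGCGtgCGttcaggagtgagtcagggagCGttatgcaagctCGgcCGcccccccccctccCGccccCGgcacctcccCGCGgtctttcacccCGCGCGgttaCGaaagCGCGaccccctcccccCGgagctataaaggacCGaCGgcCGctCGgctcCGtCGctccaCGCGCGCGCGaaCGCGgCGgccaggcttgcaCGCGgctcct
Adipor2, chr6:119388685-119388984, minus strand: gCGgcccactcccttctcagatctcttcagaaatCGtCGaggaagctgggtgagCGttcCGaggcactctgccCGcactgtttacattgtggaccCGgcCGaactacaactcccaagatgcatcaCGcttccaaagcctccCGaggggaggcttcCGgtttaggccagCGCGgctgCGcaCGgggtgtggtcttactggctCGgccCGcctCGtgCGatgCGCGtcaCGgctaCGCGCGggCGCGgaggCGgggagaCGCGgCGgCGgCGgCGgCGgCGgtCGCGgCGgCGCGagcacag

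The Adipoq window held no CG pair and the Retn window 2, whereas the Adipor2 window held 41 and this Rbp4 window 40. Of all 32851 windows in the table, 5.43% held no CG pair, 23.3% held 2 or fewer and 3.46% held 41 or more, and the median window held 7. The outer Rbp4 window (chr19:38125272-38125571, minus strand) held 5. Exact matches were sought on both strands for TTGCNNAA, a C/EBP-like motif, AGGTCA, a nuclear receptor core motif, the DR1 element, a spaced direct repeat of that core that may overlap it, TCACNCCAC, a sterol element, and TATAAA. These occur in 10.8%, 16.3%, 0.381%, 1.24% and 13.6% of all windows, in that order. The windows of Adipoq, Retn and Adipor2 and the outer window of Rbp4 held none of the 5. The inner Rbp4 window held TATAAA starting 28 bases before the annotated start, and TTATGCAA, a match to the C/EBP-like motif on the other strand, starting 128 bases before it. A match or its absence describes these letters and not the binding of a factor.

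Adipoq was at or near the floor until 24 hours and then climbed within days to the top of its range. Its intensity was 96 in preconfluent and 138 in confluent cells, 123, 217 and 152 at 6, 12 and 24 hours, 1150 on day 2, 10700 on day 3, 17700 on day 4, 16500 on day 7 and 19900 on day 28. The floor, below which values were set to it before taking log2, was 137, so the preconfluent and 6-hour samples have only an upper bound. In the order of levels, 2 of 9 gaps between neighbours exceeded the residual SD of 0.76 log2 units: the one below day 2 and the one below day 3. Within the 5 samples up to 24 hours, and within the 4 samples from day 3 on, no gap between neighbours exceeded that spread. The ends of the later set lay further apart, at 13.39 on day 3 and 14.28 on day 28 in log2 units.

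In late cells Adipoq averaged 18033 in intensity against 117 before induction, at least 131-fold higher. The log2 change was 7.03 ± 0.69 (SE, n = 3 late and 2 before, limma adjusted p = 0.00031). Of the 7582 tested probe sets 10.9% were called in this contrast, 5.82% higher and 5.10% lower. Middle cells averaged 5925 in intensity and were already at least 25.5-fold above cells before induction (4.67 ± 0.76 SE, n = 2 against 2, limma adjusted p = 0.0125), where 2.76% of probe sets were called, 1.53% higher and 1.23% lower. That call was lost without the preconfluent sample (adjusted p = 0.0809) and without the confluent one (0.0657). The log2 change was 6.28 with day 3 as the only middle sample and 3.06 with day 2 as the only one. Late against middle cells gave 2.36 ± 0.69 (SE, n = 3 against 2), which did not pass (adjusted p = 0.202 from limma), and day 28 against days 4 and 7 gave 0.22 ± 0.98 (SE, n = 1 against 2, limma adjusted p = 1).

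The steepest steps lay between 24 hours and day 3. From day 2 to day 3 the intensity grew 9.30-fold, a step reached by 2 of the 4050 tested probe sets of array A (0.0494%). The other was Rarres2, which encodes the adipokine chemerin, at 1450 on day 3 and -713 on day 2. The 24-hour value of 152 was under the filter limit of 182, so the size of the step from it to day 2, 7.57-fold as deposited, is uncertain. On the floored scale 7 probe sets (0.173%), Adipoq itself and the fatty acid carrier Fabp4 among them, stepped at least as far, a rank with the same limit. These steps rest on 1 sample each and carry no test.

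**Figure D1:**
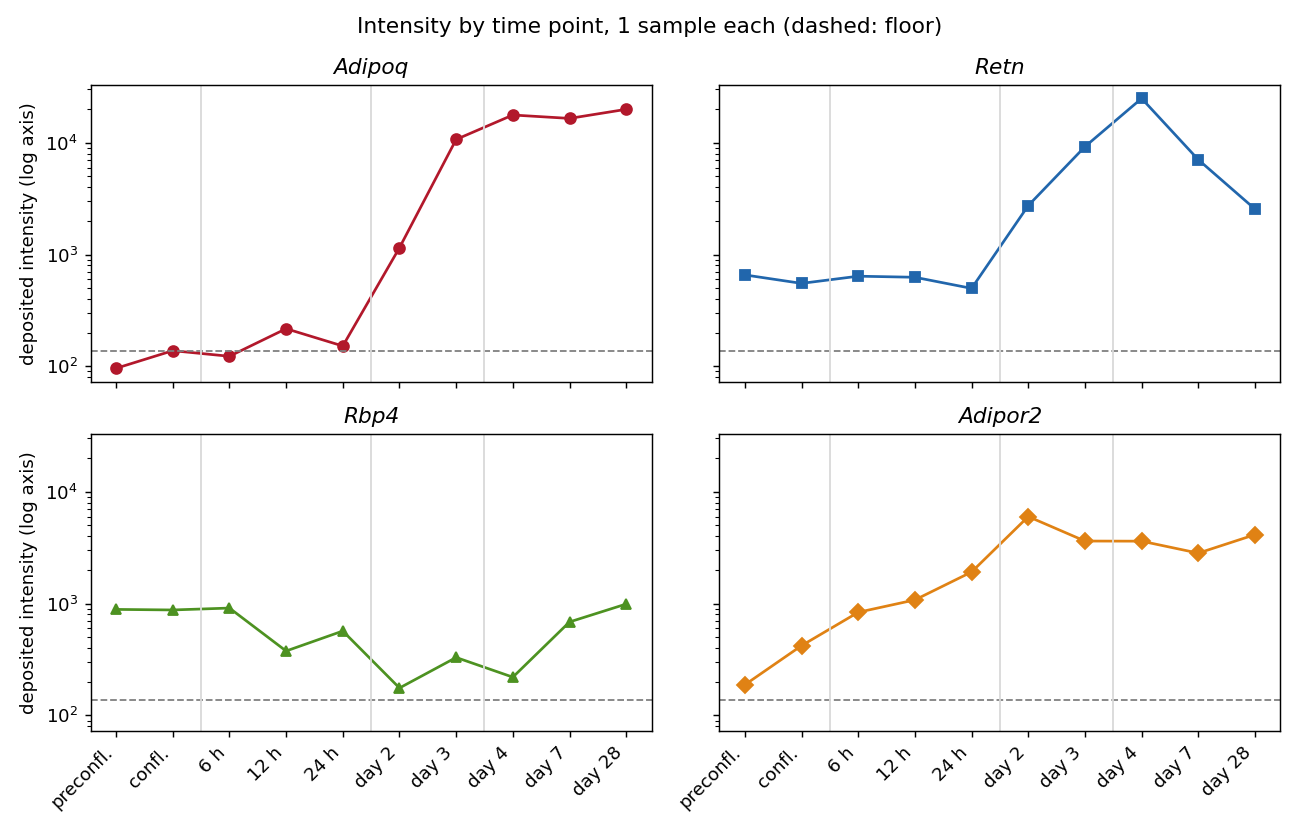
Deposited intensity of the 4 genes at each of the 10 time points, on a log axis shared by the panels, with 1 sample per point and the floor of 137 dashed. Vertical lines part the stages, and time points are evenly spaced although the times are not. Adipoq is near the floor until 24 hours and at 1150 on day 2, Retn peaks at 24900 on day 4, Rbp4 is lowest at 176 on day 2, and Adipor2 climbs from the first sample to 6010 on day 2.

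Retn rose in late cells, was highest on day 4 and lower again on days 7 and 28. Its intensity was 657 in preconfluent and 552 in confluent cells, 640, 626 and 498 at 6, 12 and 24 hours, 2740 on day 2, 9220 on day 3, 24900 on day 4, 7050 on day 7 and 2550 on day 28. The 5 samples up to 24 hours lay within a narrow band above the floor and all 5 later ones above that band. Of 9 gaps in the order of levels, 3 exceeded the residual SD of 0.85: the gap under day 28, which set the high samples off from the first 5, the gap under day 7 and the gap under day 4. Day 2 and day 28 lay 0.10 log2 units apart, within that spread.

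Late cells averaged 11500 in Retn intensity against 604.5 before induction (12.7-fold by geometric means, log2 change 3.67 ± 0.77 SE, n = 3 against 2, limma adjusted p = 0.0128). The call was lost without the preconfluent sample (adjusted p = 0.083), without the confluent sample (0.0818) and with day 4 counted as a middle sample (0.0581). The log2 change was 2.82 without day 4 and 4.46 without day 28. In middle cells, with a mean intensity of 5980, the change from before induction was 3.06 ± 0.85 (SE, n = 2 against 2) and did not pass (limma adjusted p = 0.0895). It passed without day 4 (0.0373) and without day 28 (0.0448). Early cells differed by -0.04 ± 0.77 (SE, n = 3 against 2, limma adjusted p = 1), where 0.198% of probe sets were called higher and 0.158% lower.

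The climb ran over 3 samples: 5.50-fold from 24 hours to day 2, 3.36-fold to day 3 and 2.70-fold to day 4, steps matched by 0.296%, 1.36% and 1.48% of array A probe sets. Against day 4 the Retn signal was 3.53-fold lower on day 7 (1.04% of probe sets) and 9.76-fold lower on day 28, and day 28 was 2.76-fold below day 7 (3.53%). A difference between day 28 and day 4 as large in this direction was seen in 5 of 4050 probe sets of array A (0.123%), Retn included. Besides 2 without a single gene symbol these were Rnf181, a ubiquitin ligase, and Pea15a, a regulator of ERK signalling. Both of these lay below the floor on day 28, at -154 and 132, so the size of their difference is a lower bound. With values set to the floor, a probe set dim on day 4 cannot fall this far, which limits the share. In the contrast of day 28 with days 4 and 7, chosen because this lower value was already known, Retn had a log2 change of -2.38 ± 0.79 (SE, n = 1 against 2), and it did not pass over all probe sets (limma adjusted p = 0.353). In it 0.303% of probe sets were called, 0.237% higher and 0.0659% lower. The lower ones were 5 in all, and 329 at an unadjusted p under 0.05. With the lone day 28 sample assumed to vary like the other stages, leaving out day 4 gave -1.47 and leaving out day 7 gave -3.29.

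**Figure D2:**
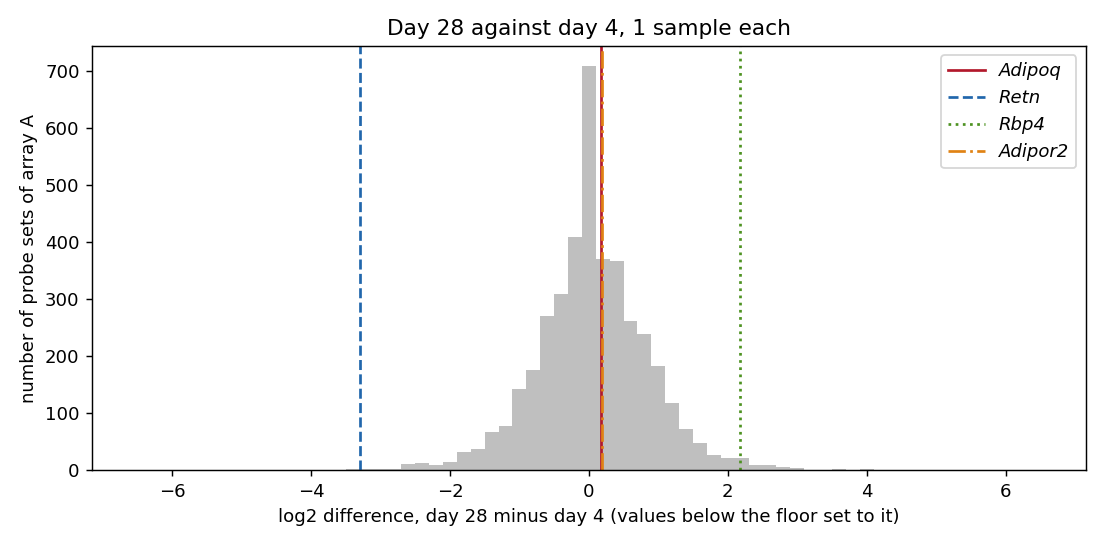
Number of array A probe sets (vertical axis) by their log2 difference between day 28 and day 4 (horizontal axis), over 4050 tested probe sets and 1 sample per day. Retn lies at -3.29 in the left tail, Rbp4 at 2.17 on the right, and Adipoq and Adipor2 both near 0.2, within the bulk.

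Cell type markers moved between the same days. On day 28 the summed intensity, with values under the floor set to it, of the 4 fibroblast or preadipocyte markers of array A was 27877, against 9937 on day 4 and 7492 on day 7, and that of the 4 markers of array B was 18263, against 14780 and 13609. Of these 8 markers 5 lay above both earlier days and 2 below both, where 30.4% and 36.6% of all tested probe sets did. Their median log2 difference was 0.88. None was called by limma and 4 were at an unadjusted p under 0.05, as were 672 of all 7582 tested probe sets. Most of the array A sum on day 28 was the counted probe set of Col1a1, at 19100 against 4990 on day 4 and 5520 on day 7. Its other probe sets rose less, to 3140 against 1820 and 1530 and, on array B, to 7540 against 5010 and 5770. The 4 tested adipocyte markers of array A summed to 86880 on day 28, against 78940 and 73210, and the 5 of array B to 30500, against 34050 and 35550. Their median difference was -0.02, with 1 of 9 above and 4 below both earlier days, beside the same 30.4% and 36.6% of all tested probe sets. Cox8b, a marker of brown adipocytes, was at 6610 on day 28, against 167 on day 4 and 1910 on day 7, and Cidea, another, was at 964 on day 28, against 80 and 152, and was not tested because only 1 sample passed the limit. Ucp1, the defining one, stayed below the floor in all 10 samples, and the other 2 listed brown markers were not analysed here. Adipoq was at 19900 on day 28, against 17700 on day 4 and 16500 on day 7. The part of these marker shifts in the Retn and Adipoq values was not tested.

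Rbp4 took a different course from the other hormones, with its lowest values on the days when theirs were climbing. Its intensity was 888 in preconfluent and 878 in confluent cells, 913, 377 and 569 at 6, 12 and 24 hours, 176 on day 2, 330 on day 3, 220 on day 4, 686 on day 7 and 992 on day 28. The 3 samples of days 2 to 4 were the lowest of all, and day 28 was the highest. From 6 to 12 hours it was 2.42-fold lower, as 3.26% of array A probe sets were or more, and day 4 was 3.99-fold below the confluent sample (3.21%). No gap between neighbours in the order of levels exceeded the residual SD of 0.65, which itself holds changes over time within a stage. The levels still ran from 7.46 on day 2 to 9.95 on day 28 in log2 units. Rbp4 passed the test of change along the series (limma adjusted p = 0.0297), a call made for 16.8% of probe sets. That call was lost in 5 of the 10 fits that left out 1 time point: preconfluent (0.055), confluent (0.056), day 2 (0.0858), day 4 (0.0607) and day 28 (0.074).

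No stage contrast of Rbp4 passed. Middle cells averaged 253 in intensity against 883 before induction (log2 change -1.87 ± 0.65 SE, n = 2 against 2, limma adjusted p = 0.171), and with day 4 counted among them the change was -1.92 and passed (0.0233). Late cells averaged 632.7 against the same 883 (-0.73 ± 0.59 SE, n = 3 against 2, limma adjusted p = 0.493), and their 3 values overlapped those before induction. That change was -0.10 without day 4 and -1.19 without day 28. Late against middle cells gave 1.14 ± 0.59 (SE, n = 3 against 2, limma adjusted p = 0.473), where 0.290% of probe sets were called, 0.224% higher. It was 0.69 without day 2, 0.69 without day 28 and 1.78 without day 4, with no call in any of these. From day 4 to day 28 the intensity grew 4.51-fold, and 53 of 4050 probe sets (1.31%) grew as much. At day 7, where Rbp4 was already 3.12-fold above day 4 (2.27% of probe sets), the fibroblast markers of both array types summed to their lowest value of the series, and on day 28 to 27877 and 18263. The part of these markers in the Rbp4 values was not tested.

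Adipor2 had the earliest climb in values of the 4 and was called higher in middle and late cells. Its intensity was 188 in preconfluent and 421 in confluent cells, 837, 1080 and 1920 at 6, 12 and 24 hours, 6010 on day 2, 3630 on day 3, 3620 on day 4, 2830 on day 7 and 4140 on day 28. Every sample up to day 2 was above the one before it, and the later 4 lay between the 24-hour and the day 2 value. Of 9 gaps in the order of levels 5 exceeded the residual SD of 0.49, including those on both sides of the confluent sample and the one under day 2. The samples of days 3, 4 and 28 were not set apart from each other.

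Middle cells averaged 4820 in Adipor2 intensity against 304.5 before induction, 16.6-fold higher by geometric means (log2 change 4.05 ± 0.49 SE, n = 2 against 2, limma adjusted p = 0.00245). Late cells averaged 3530 and were 12.4-fold higher (3.63 ± 0.45 SE, n = 3 against 2, limma adjusted p = 0.00107). Both calls held in all 10 fits that left out 1 time point. The late change was 3.05 without the preconfluent sample and 4.21 without the confluent one. Early cells averaged 1279, a change of 2.09 ± 0.45 (SE, n = 3 against 2) that did not pass over all probe sets (limma adjusted p = 0.113, and 0.0465 with a trended and robust prior variance). In that contrast 0.356% of probe sets were called, 0.198% higher and 0.158% lower, with 699 at an unadjusted p under 0.05. The values also rose before induction: the confluent sample was 2.24-fold above the preconfluent one, as 4.79% of array A probe sets were or more. The preconfluent value of 188 was close to the filter limit of 182 and the floor of 137. The size of that step, from 1 sample each, is thus uncertain. The 6-hour and 24-hour samples were 1.99-fold and 4.56-fold above the confluent one (8.17% and 0.963%), and day 2 was 3.13-fold above 24 hours (1.16%).

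**Figure D3:**
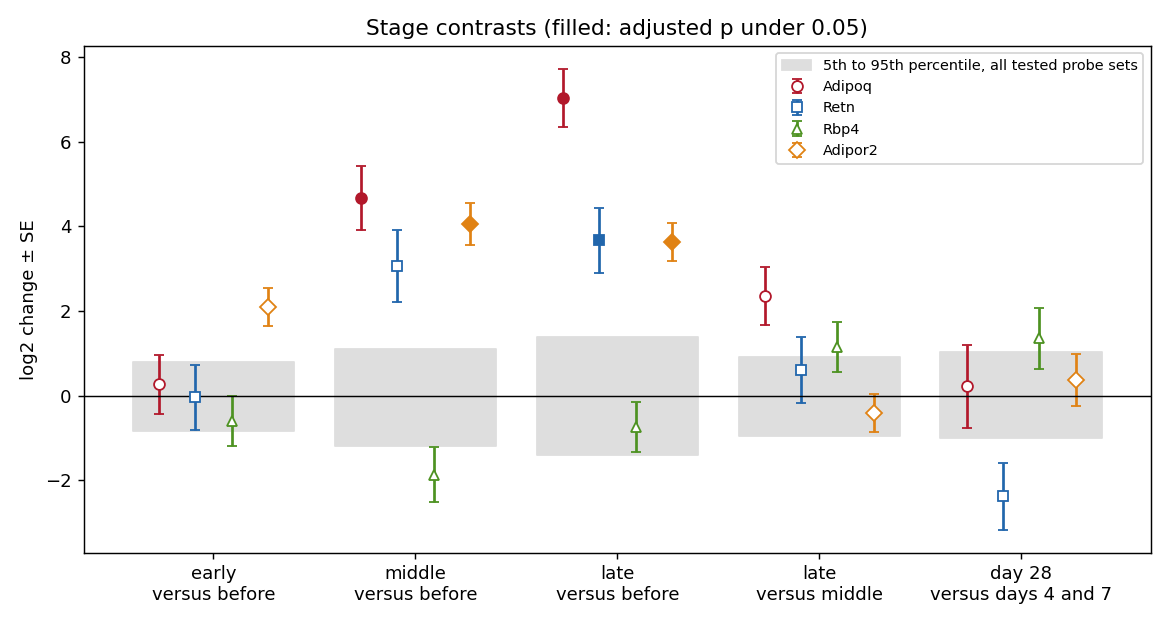
Log2 change of each gene in 5 contrasts (points, with bars for the SE from limma), filled where the adjusted p is under 0.05. Grey bands run from the 5th to the 95th percentile of all 7582 tested probe sets. Filled points are Adipoq and Adipor2 in middle and late cells against cells before induction and Retn in late cells, and every point of Rbp4 is open.

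The 4 genes had their highest values at different times, on day 2 for Adipor2, day 4 for Retn and day 28 for Adipoq and Rbp4. At 24 hours Adipor2 stood at 31.9% of its highest intensity, Retn at 2.00% and Adipoq at 0.764%. On day 2 Retn stood at 11.0% and Adipoq at 5.78%. Day 3 was the first sample above 50% of the highest for Adipoq, and day 4 was the only such sample for Retn. On day 28 Retn was at 10.2% and Adipor2 at 68.9% of its highest. These shares compare each gene with itself, since intensities of different probe sets are not on a common scale, and the order of times rests on 1 sample each. Change along the whole series passed for Adipoq (limma adjusted p = 0.000152), Adipor2 (0.000714) and Retn (0.00235) as well as Rbp4. The Retn call was lost with a stiffer spline of 2 degrees of freedom (0.0501).

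**Figure D4:**
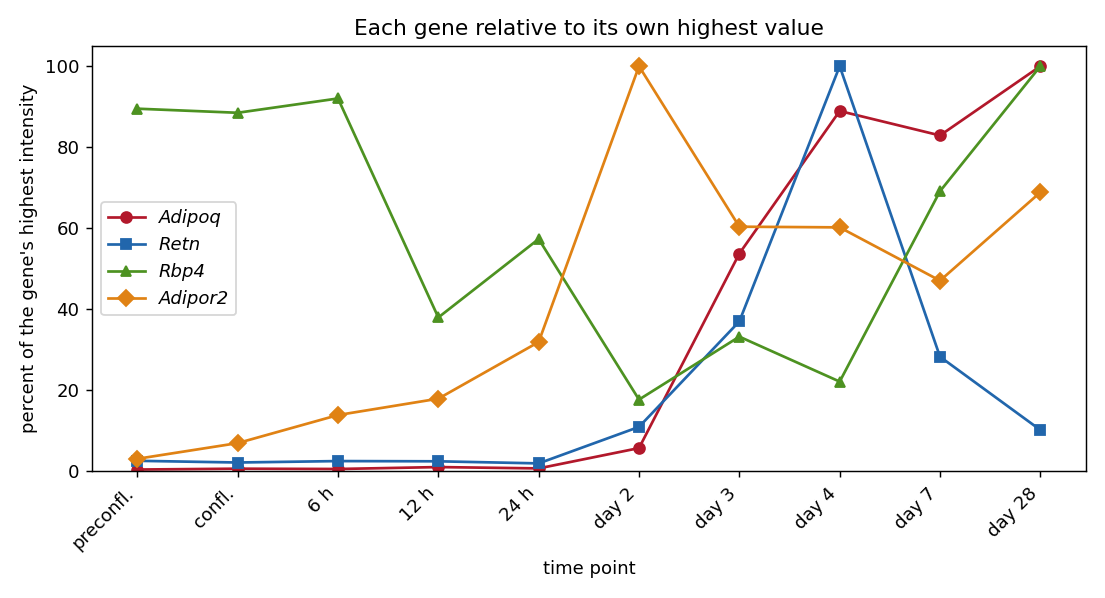
Intensity of each gene as a percent of its own highest value (vertical axis) at the 10 evenly spaced time points (horizontal axis), 1 sample per point. Adipor2 is at 31.9% by 24 hours when Retn and Adipoq are at 2.00% and 0.764%, and Retn is at 10.2% on day 28 while the others are at 68.9% or above.

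Over the 10 time points, on the floored log2 scale, Adipoq correlated with Retn at r = 0.908 (Spearman 0.669) and with Adipor2 at r = 0.744 (0.809). Rbp4 ran against all 3, at r = -0.294 with Adipoq, -0.543 with Retn and -0.596 with Adipor2. All points share the time course and the arrays, so these values only describe the curves. Among 3191 other named genes of array A, the patterns most like Adipoq were those of Cd36, a fatty acid receptor (r = 0.987), Hibch, a valine breakdown enzyme (0.986), Mtarc2 (0.986) and Col15a1, a basement membrane collagen (0.982). Those most like Retn were Capza1, an actin capping protein (0.969), Samm50 (0.962), Mrpl46 (0.961) and Vdac1 (0.958), the last 3 of mitochondria. Correlation ignores the size of a change. In late cells the log2 change of these was 0.725, 1.75, 0.751 and 0.519, in that order, beside 3.67 for Retn. Capza1 and Vdac1 had no called change along the series (limma adjusted p = 0.124 and 0.189), and Mrpl46 was below the floor up to 24 hours. Nearest to Rbp4 were Oxr1 (0.922), Emp1 (0.888), P2ry2 (0.881) and En1 (0.878), and nearest to Adipor2 were Atp5l (0.928), Micos10 (0.926), the lipase gene Lipe (0.924) and Pam16 (0.916). With Spearman's measure 0 of these 4 names stayed for Adipoq and Adipor2 and 1 each for Retn and Rbp4, so the names hold for Pearson's measure and this floor.

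Other secreted products of adipocytes were measured beside them. Of 35 listed genes 17 had a probe set and 10 were tested. In late cells 4 of the 10 were higher and 1 lower, beside 5.82% and 5.10% of all tested probe sets, and their median log2 change was 2.08 beside -0.05 over all. Rarres2 was at 4150, 8950 and 26700 on days 4, 7 and 28 against -714 and -407 before induction (at least 72.8-fold higher, limma adjusted p = 0.00222). Its value was highest on day 28, when Retn was lowest of the late samples. Hp, the haemoglobin scavenger haptoglobin, was at 5040, 4080 and 7960 against 114 and 84 (at least 35.1-fold, limma adjusted p = 0.00517). Vegfa, the vascular growth factor, was 8.41-fold higher, and Nampt, the NAD-making enzyme also called visfatin, 3.63-fold higher (limma adjusted p = 0.00812 and 0.00848). Ccl2, a chemokine that attracts monocytes, was at least 5.78-fold lower, at -147, -57 and -10 against 911 and 687 (limma adjusted p = 0.000468). It was already below the floor at 6 hours, at -65, and in every later sample. Early and middle cells were called lower too (limma adjusted p = 0.00889 and 0.00145).

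Lcn2, lipocalin 2, shared the day 4 peak of Retn on the other array type. Its 2 probe sets on array B read 10700 and 6880 on day 4, 896 and 528 on day 7 and 110 and -122 on day 28. Both had a called change along the series (limma adjusted p = 0.0151 and 0.0273), and in neither was late against before called (0.385 and 0.372). Angptl4, an inhibitor of lipoprotein lipase, was at 820, 1990 and 1630 in late cells against 472 and 169 (limma adjusted p = 0.0714). Lep, the hormone leptin, stayed below the floor in all 10 samples with a highest value of 94 on day 28. Cfd, the protease adipsin, was not analysed here.

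**Figure D5:**
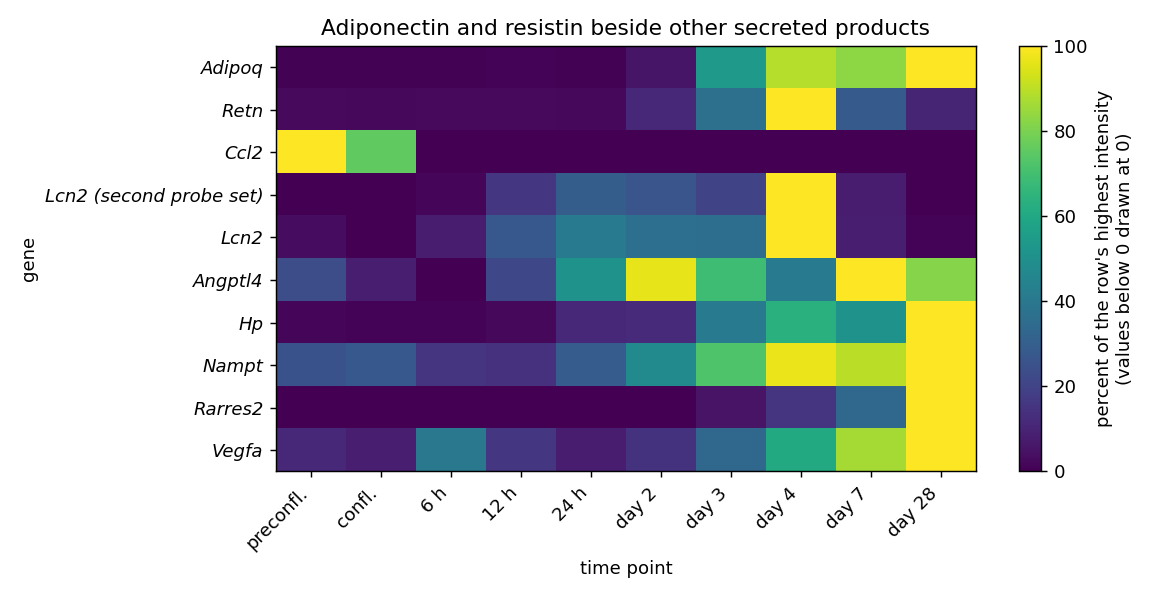
Intensity as a percent of each row's highest value (colour) for Adipoq, Retn and the secreted products with a called change along the series, over the 10 time points, 1 sample per cell and values below 0 drawn at 0. Both probe sets of Lcn2 and the one of Retn are brightest on day 4, and Rarres2, Hp, Nampt and Vegfa on day 28.

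Few genes around the receptor were measured. Of 32 listed for adiponectin receptors, assembly and signalling 6 had a probe set and 3 were tested, and 0 passed in limma's late contrast, beside 10.9% of all tested probe sets, with 0 at an unadjusted p under 0.05: Prkag1, a subunit of AMP-activated kinase (log2 change 0.29), Erp44, which retains adiponectin in the secretory pathway (0.32), and Pdia3, a disulfide isomerase (-0.60). Adipor1 and Cdh13, which encodes the adiponectin-binding T-cadherin, were not analysed here. For resistin, 3 of 7 listed genes were tested and 1 was lower, beside 5.10% of all tested probe sets: Cap1, reported in human cells as a resistin receptor, fell (at 150, 378 and 149 late against 801 and 605 before, at least 3.06-fold lower, limma adjusted p = 0.0323). Retnlb, a resistin-like gene, had a log2 change of 0.16 (limma adjusted p = 0.839), and its other probe set was too dim to test. Retnla was not analysed here.

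Of 29 genes for retinol transport and retinoid metabolism 13 had a probe set and 9 were tested, with 1 higher and none lower late. That 1 of 9 is near the 10.9% called over all tested probe sets, and the median log2 change was 0.01 beside -0.05 over all. The one was Aldh1a7, an aldehyde dehydrogenase close to the retinal-oxidising Aldh1a1, at 8740, 4300 and 5110 against 4 and -43 (at least 37.0-fold higher, limma adjusted p = 0.00541). Rarg, a retinoic acid receptor, was not called by its brighter probe set, and was called lower by its other one (log2 change -1.14, limma adjusted p = 0.0352). Ttr, the plasma partner of RBP4, reached 312 at most and did not pass (0.809). Stra6, which encodes a receptor for RBP4, was not analysed here.

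Among 10 tested regulators of adipokine genes Pparg and Cebpa rose late and none fell, beside 5.82% of all tested probe sets called higher and 5.10% lower. The median log2 change of the 10 was 0.24 beside -0.05 over all. Pparg read 894 on day 2 and 267 at 24 hours, and Cebpa was at 1050 on day 2 and below the floor at 24 hours. Day 2 was the sample in which Adipoq first left its early range. On days 4, 7 and 28 Pparg was at 1640, 1210 and 1180 and Cebpa at 1700, 1990 and 1470. Cebpb and Cebpd, other C/EBP genes, were at 6410, 4260 and 2970 and at 1390, 365 and 367 on these days. Neither was called in late cells (log2 change 0.63 and -0.31, limma adjusted p = 0.329 and 0.779). Both had a called change along the series (limma adjusted p = 0.0359 and 0.0377). The part of these regulators in the values of the 4 genes was not tested.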

How the data were processed

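Total RNA of 3T3-L1 cultures at 10 time points had been labelled from 10 µg and hybridised, per the labels' protocols, to 2 array types, 20 arrays in all. The authors deposited a linear intensity per probe set. Per the labels all steps followed the maker's technical manual, and the software is not given in the sources used here. On every array the mean without the outer 2% of values at each end was 500.9 to 501.1, and the deposited scaling was left as it was. Among the values of array A 24.3% were below 0.

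The floor was the 10th percentile of all values of an array type with its sign turned (137 on array A, 156 on array B). Probe sets above 182 or 156 in at least 2 samples were tested, 7582 of 13179, without 110 controls. Stage means, and a natural spline (3 degrees of freedom) over the rank of the time points, were fitted per array type with limma 3.58.1 in R 4.3.3. Benjamini-Hochberg adjustment ran over both array types, with calls at 0.05, and the fits were tested on simulated data. A fold is "at least" where the dimmer stage touches the floor. Named genes were the members, the 4 most alike per member, up to 5 called genes per list and fixed partners. Gene symbols come from the platform annotation of the probe sets, updated through gene IDs. Members and lists were chosen with earlier results of these data known, and the CG counts and single-step comparisons after their values were seen. Precision is limited by how few arrays there are. The planned protein comparison was not made. Alternatives are given in the closing section.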

Additional observations from a re-analysis of the deposited data

How the results depend on the processing

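The 24 results of the 4 genes were recomputed under 448 combinations of result and setting. Of these 423 kept direction and side of the threshold, 14 lost a call, 6 gained one and 5 turned direction. Adipoq against before induction in middle cells was 3.67 with the 5th-percentile floor of 275 (adjusted p = 0.0596). With day 4 in the middle stage Retn was 2.82 late against before, 3.83 middle against before (now called) and -1.01 late against middle, the last an uncalled change that turned direction, and Rbp4 was -1.92 middle against before (now called). With a spline of 2 degrees of freedom the trend gave adjusted p = 0.0501 for Retn and 0.0716 for Rbp4, and without a filter 0.0574 for Rbp4. A trended and robust variance left the early change of Adipor2 at 2.09 with a call. The cause was not tested.

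Leaving out 1 time point at a time gave these ranges of the log2 change. Late against before ran from 2.82 to 4.46 for Retn and -1.19 to -0.10 for Rbp4. Middle against before ran from 3.06 to 6.28 for Adipoq and 2.19 to 3.94 for Retn. Late against middle ran from 0.75 to 3.97 for Adipoq (called without day 3, adjusted p = 0.00186) , 0.69 to 1.78 for Rbp4 and -0.27 to 1.48 for Retn, and early against before from -0.17 to 0.08 for Retn, whose uncalled changes turned direction in these contrasts without the preconfluent sample and without 24 hours (0.0821 and 0.0718, early against before) and without day 2 and without day 4 (-0.27 and -0.25, late against middle). The trend's adjusted p for Rbp4 ran from 0.026 to 0.0858. Counts of called probe sets ran from 319 to 766 late against before, 0 to 46 early against before, 35 to 193 middle against before, 2 to 116 late against middle, 2 to 37 for day 28 and 915 to 1254 along the series.

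Counts of called probe sets moved in the contrasts with few calls. Early against before (27) had 14 on the inverse hyperbolic sine scale, 15 with a filter on 4 samples and 43 with a trended variance. Middle against before (209) had 491 with day 4 in the middle stage. Late against middle (22) had 10 with the higher floor, 35 with a lower floor, 5 on the inverse hyperbolic sine scale, 13 without a filter, 11 with a filter on 4 samples and 85 with day 4 in the middle stage. Day 28 against days 4 and 7 (23) had 72, 9, 42, 121 and 12 under the first 5 of these settings. No paired analysis was possible because no sample carries a replicate number. Intensities near the floor limit the folds of Adipoq against cells before induction and early cells.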
